A study of Mus musculus with 48 samples.

Results

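The comparison set nuclear against cytosolic polyadenylated RNA 60 min after transcription was blocked. Its members are the 3 nucleus and the 3 cytosol libraries whose titles give 60 min, 6 of the 48 libraries of the series, and the genes listed in all 6, which are 13409 of the 23862 gene identifiers listed in any library. The cells are E14TG2a, a line of mouse embryonic stem cells (mESC) grown without feeders in "2i + LIF" medium with serum, and all libraries, at every time and in every fraction, come from cultures given 1 µM flavopiridol. Replicates are separately passaged cultures. The cytosol is what a low concentration of digitonin released from the cells, and the nucleus is the pellet left after a second detergent had taken off the membrane fraction. Flavopiridol inhibits the kinase P-TEFb (Cdk9 with a T-type cyclin), which RNA polymerase II needs to leave its paused state near the start of a gene.

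Each deposited value is a ratio that sets a gene's RNA in a fraction against what that fraction held at 0 min, so that 1 means no change since the block. The authors first scaled libraries on genes with half-lives above 14 hours, so a ratio is relative to such genes in the same fraction. It is the share of the starting RNA that a compartment still held only if those genes kept their level there, which was not tested. Words such as share, kept and lost are used below on that scale. A ratio says nothing of how much RNA the nucleus held compared with the cytosol. All differences below are on the log2 scale, nuclear ratio minus cytosolic ratio, so that a negative difference means that the nucleus had kept less of its starting RNA than the cytosol. A difference between compartments can also come from the level at 0 min. When a gene's 60 min value was divided by its 30 min value of the same fraction, 66.0 to 67.8% of nuclear genes gave a quotient that another gene gave too (to 9 significant digits) for libraries of different replicate numbers, and 66.2 to 67.3% for libraries of the same number. Quotients of nucleus over cytosol recurred in only 0.149 to 0.216% of genes. Small counts give recurring quotients where the same starting level cancels, so 1 level at 0 min appears to serve all 3 replicates of a fraction. Its error is then not part of the replicate spread, and the SEs and p-values given here do not cover it.

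By background, a messenger RNA is made, spliced and given its poly(A) tail at the gene, is released from chromatin, passes a nuclear pore and is degraded mainly in the cytoplasm. Once transcription stops, the nucleus loses RNA by export and by nuclear decay and receives RNA only from polymerases already beyond the pause, while the cytosol loses RNA by decay or by transfer to the endoplasmic reticulum and still receives what the nucleus exports. Small nucleolar RNAs (snoRNAs) are cut out of the introns of host genes and guide the chemical modification of ribosomal RNA in the nucleolus.

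The cells' identity could be checked only by which genes are listed, because ratios hold no level. Of 8 stem cell markers, 7 were listed in all 6 libraries, as were 4 of 4 markers of primed epiblast and mesoderm, 3 of 6 of primitive endoderm and 0 of 5 of fibroblast feeders. The feeder markers Col1a1 and Thy1 were each listed in 5 of the 6 libraries, as was the stem cell marker Esrrb. Being listed therefore does not separate these cell types. How pure each fraction was cannot be read from ratios, and its part in the results was not tested. For the same fractionation the paper shows Western blots of marker proteins. In its metabolic labeling libraries it describes slight contamination of the nuclear fraction by mitochondria. The nuclear libraries listed 18565 to 18776 genes and the cytosolic ones 16001 to 16132.

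On the authors' scaling, the nucleus had lost more of its RNA than the cytosol at 60 min of the block. The median gene stood at a ratio of 0.598, 0.579 and 0.672 in the 3 nuclear libraries and at 0.850, 0.800 and 0.896 in the 3 cytosolic ones, so that the libraries did not overlap. On the log2 scale the library medians were -0.70 ± 0.11 (SD, n = 3) in the nucleus and -0.24 ± 0.08 (SD, n = 3) in the cytosol. The exact permutation test (two-sided) gave p = 0.1, the smallest value that 3 against 3 libraries allow. The difference of the median gene was -0.39, and 71.7% of genes had a difference below 0.

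Gene by gene, limma called 4283 genes (31.9% of those tested) lower and 727 genes (5.42%) higher in the nucleus at a Benjamini-Hochberg adjusted p under 0.05, and 6558 genes had an unadjusted p under 0.05. Of the called genes, 2290 were lower and 226 higher by at least 1 on the log2 scale. The 3 nuclear values lay below the 3 cytosolic values for 5783 genes (43.1%) and above them for 1354 (10.1%). The balance of the calls rests on the authors' scaling of the libraries to stable messages. With each library centred on its own median gene instead, 3135 genes (23.4%) were higher and 2101 (15.7%) lower, because every difference moved up by 0.46. With libraries scaled to mitochondrially encoded messages every difference moved down by 0.29, and 222 genes were higher and 5806 lower (the cytosolic libraries at 60 min stand apart in those messages, as given below). Gene groups are therefore described below against the median of all genes, which such shifts leave in place.

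**Figure D1:**
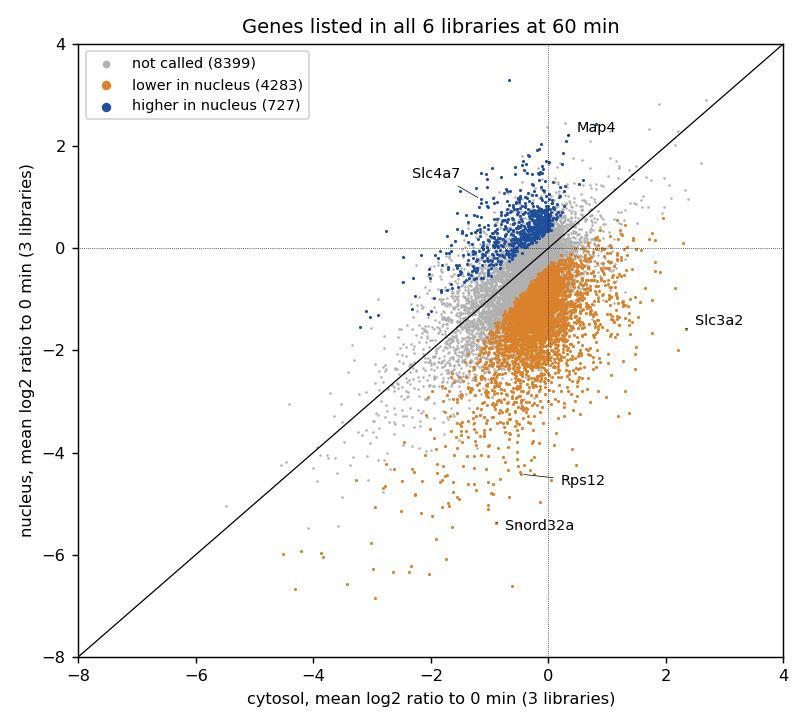
Mean log2 ratio to 0 min of every gene listed in all 6 libraries, cytosol on the horizontal and nucleus on the vertical axis, each point 1 gene and the diagonal marking equal ratios. Orange points are the 4283 genes lower in the nucleus and blue points the 727 genes higher there, so most called genes lie under the diagonal.

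In the 10 genes with the largest differences upward the nuclear ratio stood near or above 1, and in 8 of them every cytosolic value but 1, in Usp15, was under 1, while Map4 and Rbp7 were above 1 in the cytosol too. Slc4a7, a sodium bicarbonate cotransporter (chr14:14702279-14799940, GRCm38, plus strand), had nuclear ratios of 1.59, 2.02 and 2.28 and cytosolic ratios of 0.427, 0.435 and 0.495. The nuclear share was 4.31-fold higher, a difference of 2.11 ± 0.16 (SE, limma adjusted p = 0.00248). All nuclear values were above 1 and all cytosolic values under it. Rfx3, a transcription factor of ciliated cells (chr19:27761721-28011166, minus strand), behaved likewise, with 1.58, 1.65 and 2.03 against 0.442, 0.366 and 0.536, a difference of 1.98 ± 0.18 (adjusted p = 0.00248). Tcf12, a basic helix-loop-helix factor on chromosome 9, gave 2.97, 2.63 and 2.77 in the nucleus and 0.702, 0.675 and 0.983 in the cytosol.

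The other genes of this group differ in how the cytosol moved. Ppp2r5e, a regulatory subunit of protein phosphatase 2A, stood at 2.65, 2.52 and 3.07 in the nucleus and at 0.805, 0.774 and 0.910 in the cytosol, a difference of 1.73 ± 0.15 (adjusted p = 0.00248). Fam126b, which encodes a partner of a phosphatidylinositol kinase at the plasma membrane, showed nuclear ratios close to 1 (0.900, 1.03 and 1.23) and had fallen in the cytosol to 0.271, 0.357 and 0.328. Spi1, the blood cell transcription factor PU.1, had the same shape at 60 min, with 1.22, 1.24 and 0.882 against 0.349, 0.355 and 0.293. At 30, 120 and 240 min its cytosolic mean was 1.16 ± 0.54, 0.836 ± 0.27 and 0.612 ± 0.02 (SD, n = 3). In Fam126b it was 0.538 ± 0.05, 0.218 ± 0.01 and 0.159 ± 0.01, so the fall was not held in Spi1. Replicates of Spi1 spread widely at other times, as in the nucleus at 30 min (1.37 ± 0.98), so its course is less well measured. These 6 genes were called in each fit without 1 replicate number. Those fits have fewer libraries, and the smallest adjusted p of any named gene in them was 0.0387, close to the threshold. In Map4, a microtubule-associated protein, both compartments were above 1, with 4.36, 4.03 and 5.64 in the nucleus and 1.11, 1.18 and 1.52 in the cytosol. Map4, Usp15 (a ubiquitin protease), Rbp7 (a retinol-binding protein) and Ripply3 (a transcriptional repressor) kept their direction but were not called in at least 1 of those fits, with adjusted p up to 0.0709, 0.0621, 0.0795 and 0.0611.

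**Figure D2:**
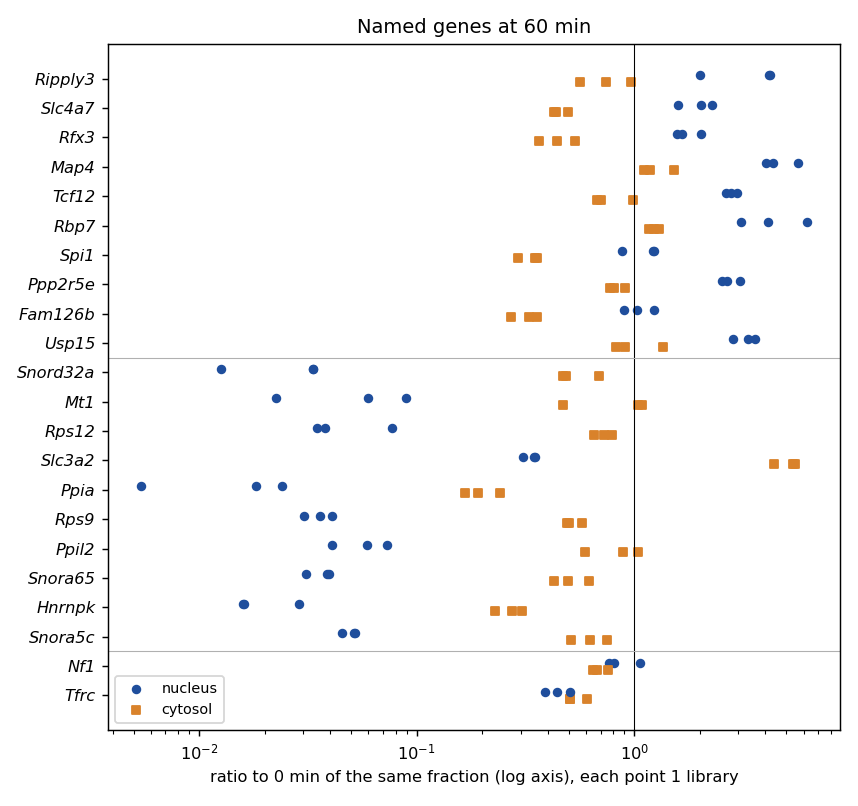
Ratio to 0 min (log axis) at 60 min for the 10 genes with the largest difference upward, the 10 with the largest difference downward, and Nf1 and Tfrc, each point 1 library (circles nucleus, squares cytosol, n = 3 each). The vertical line marks 1, and in the middle block the nuclear points lie at 0.351 or less.

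The gene models of these messages often carry Pumilio elements, TGTANATA in the sense strand, which Pumilio proteins bind in the 3′ untranslated region (UTR) to repress messages in the cytoplasm. Of the 10 genes, 6 held at least 1 match in the 3′ UTR of their longest transcript (18 matches in all), and of the 7 protein-coding genes among the 10 with the largest differences downward 1 did, Mt1. The UTRs of those 6 genes were also longer, at 2833 to 8499 bases against 28 to 1454 bases in the 7 downward genes. The match nearest the stop codon is shown for each of the 6, with the element in capitals, 5′ to 3′ and from the GENCODE M21 transcripts (GRCm38), beside that of Mt1, because the counts that follow are of this element.
Slc4a7, chr14:14796188-14796215, plus strand: tatgcctatcTGTATATAtacacatata
Rfx3, chr19:27767780-27767807, minus strand: tatgctaataTGTACATAatttgtgtac
Tcf12, chr9:71844306-71844333, minus strand: aaacacagtaTGTATATAacatttatgt
Ppp2r5e, chr12:75453568-75453595, minus strand: acagcagcacTGTATATAcctgtctcta
Fam126b, chr1:58527434-58527461, minus strand: cataaactgtTGTAAATAtgagaaaaaa
Usp15, chr10:123112104-123112131, minus strand: aattgtgtatTGTAAATAaaagttcact
Mt1, chr8:94180209-94180236, plus strand: tgccaccacgTGTAAATAgtatcggacc

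Over all protein-coding genes with a 3′ UTR of at least 100 bases, 27.2% held a Pumilio element, and the share was 42.4% of the 533 genes higher in the nucleus and 20.9% of the 3164 genes lower there. The UTRs of the higher genes were also longer, with a median of 1885 bases against 1046.5 in the lower genes and 1253 in all. Per kilobase the elements numbered 0.293 in the higher, 0.187 in the lower and 0.229 in all genes. The median difference went from -0.42 in genes without a match through -0.29, -0.12 and -0.07 with 1, 2 and 3 matches to 0.01 with 4 or more (100 genes). In those bins the nuclear ratio went from 0.599 to 0.800, and the cytosolic ratio from 0.854 to 0.755. For the AU-rich heptamer TATTTAT, the core of elements that recruit decay factors, the same medians were -0.42, -0.29, -0.18, -0.09 and -0.24. Among the genes with the largest differences upward, Slc4a7 held 8 heptamers, Usp15 3, Ppp2r5e 2, and Tcf12 and Fam126b 1 each. The others upward held none, nor did the protein-coding genes with the largest differences downward, so the Pumilio element is not particular in this. Both motifs are rich in A and U and share that with the composition described further on. A match describes letters in a window and not a bound site.

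Downward, the largest differences included ribosomal protein genes, an RNA-binding protein, 2 prolyl isomerases and 3 snoRNAs. Rps12, a protein of the small ribosomal subunit (chr10:23785183-23787275, GRCm38, minus strand), stood at 0.0771, 0.0379 and 0.0346 in the nucleus and at 0.729, 0.789 and 0.651 in the cytosol. Its nuclear share was 15.5-fold lower, a difference of -3.95 ± 0.38 (SE, limma adjusted p = 0.00248). Rps9, of the same subunit, gave 0.0359, 0.0305 and 0.0408 against 0.492, 0.501 and 0.574, a difference of -3.88 ± 0.27 (adjusted p = 0.00248). Hnrnpk, an RNA-binding protein of nuclear messages, gave 0.0160, 0.0159 and 0.0286 against 0.273, 0.229 and 0.303. The nuclear and cytosolic values of these genes lay far apart, and the cytosol of Hnrnpk had itself lost most of its RNA. Ribosomal protein genes, Hnrnpk and Ppia (the prolyl isomerase cyclophilin A) have many processed pseudogene copies, so that how reads were split between copies is uncertain for them.

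Mt1, the metal-binding metallothionein, was held least evenly, with nuclear ratios of 0.0896, 0.0595 and 0.0226 and cytosolic ratios of 1.04, 0.469 and 1.09 (difference -4.03 ± 0.61, adjusted p = 0.0053). Ppil2, a nuclear prolyl isomerase with ubiquitin ligase activity, gave 0.0593, 0.0409 and 0.0733 against 0.594, 0.887 and 1.04. Slc3a2, the heavy chain shared by amino acid exchangers of the plasma membrane, differed from all of these in the cytosol. Its cytosolic ratio rose to 5.45, 4.40 and 5.38 while the nuclear ratio was 0.347, 0.307 and 0.351, a difference of -3.92 ± 0.14 (adjusted p = 0.00111), the smallest p of all genes tested. At the same time the mean ratio of Slc3a2 was 0.845 in the membrane fraction and 0.909 in total RNA, so that the rise was seen in the digitonin extract and not in those fractions. Of the 10 genes downward, 9 were called in each fit without 1 replicate number, and Ppia reached an adjusted p of 0.0560 in 1 of them.

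snoRNA genes had kept less of their nuclear RNA than any other gene type or list described here. Of 46 tested, 33 were lower in the nucleus and 1 higher, against 31.9% and 5.42% of all genes, and their median difference was -2.16 ± 0.17 (SD over 3 pairs of libraries). The median of the class was a ratio of 0.0617 in the nucleus and 0.450 in the cytosol. Snord32a, a C/D box snoRNA, had nuclear ratios of 0.0334, 0.0333 and 0.0127 and cytosolic ratios of 0.691, 0.469 and 0.483, a 22.3-fold lower nuclear share (adjusted p = 0.0026). Snora65 and Snora5c, both H/ACA box snoRNAs, which guide pseudouridine formation, had nuclear ratios between 0.0309 and 0.0518 and cytosolic ratios between 0.427 and 0.749. Mature snoRNAs carry no poly(A) tail, and the libraries were selected for poly(A), so reads on these genes and reads on unspliced or misprocessed host RNA cannot be told apart. The boxes that define the 3 genes are shown in capitals, 5′ to 3′ as DNA from the same transcripts (GRCm38), since they identify the class of gene.
Snord32a, first 25 bases with the C box, chr7:45127440-45127464, minus strand: ggagtccaTGATGAgcaacactcac
Snord32a, last 25 bases with the D box, chr7:45127382-45127406, minus strand: aacccatgcaccgctCTGAgactcg
Snora65, last 25 bases with the ACA box, chr2:32963396-32963420, plus strand: ctgtgccgaaagcatgggaACAgcc
Snora5c, last 25 bases with the ACA box, chr11:6620319-6620343, minus strand: gggataagtttggttgcagACAttg

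The host genes allow the snoRNA interval to be set beside the spliced message around it. In the annotation, 36 of the 46 snoRNA genes lie on the same strand inside 27 tested host genes, and this pairing was made after the snoRNA values had been seen. In 31 of the 37 pairs the difference of the snoRNA gene was below that of its host. Of the 27 hosts, 15 were themselves lower in the nucleus and 0 higher (31.9% and 5.42% of all genes), with a median difference of -0.57 against -2.36 for the snoRNA genes of the pairs. Snord32a lies in Rpl13a, whose own ratios were 0.569, 0.516 and 0.638 in the nucleus and 0.873, 0.821 and 0.856 in the cytosol. Rpl4, the host of Snord16a, was at 1.02, 1.10 and 1.22 against 0.975, 1.00 and 1.07 (difference 0.13, limma adjusted p = 0.407), while Snord16a gave 0.0632, 0.0560 and 0.0912 against 0.511, 0.728 and 0.321. Gas5, a noncoding host of several tested snoRNA genes, fell itself, to 0.0138, 0.0184 and 0.0244 in the nucleus and 0.151, 0.154 and 0.0794 in the cytosol (difference -2.74). Snord78 inside it stood at 0.0158, 0.0116 and 0.0192 against 0.0894, 0.0607 and 0.0625, a difference of -2.195 and so not below its host. The other tested guests of Gas5, Gm22357, Gm23212 and Gm26224, did lie below it, at -3.886, -3.974 and -4.337. In Rpl4 the message was thus held in both compartments and the interval of Snord16a was not, while Gas5 and the interval of Snord78 were both lost.

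**Figure D3:**
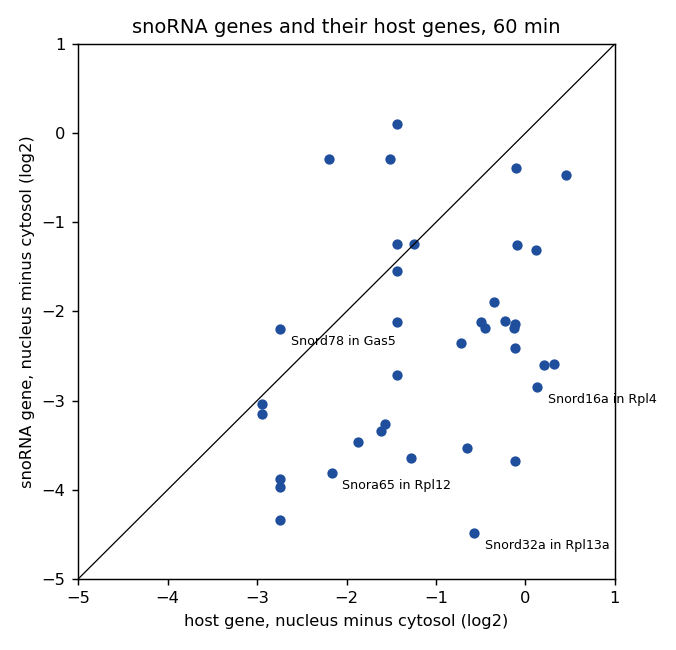
Nucleus minus cytosol (log2 ratio to 0 min, 60 min) of each snoRNA gene against that of its host gene, 37 pairs, each point 1 pair and the diagonal marking equal differences. Points under the diagonal, 31 of 37, are pairs in which the snoRNA gene lay lower than its host.

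The list of snoRNA host genes was lower almost throughout, with 14 of 16 tested members lower, 1 higher and a median difference of -2.57 against -0.39 for all genes. Of all genes 31.9% were lower and 5.42% higher. The median ratio of the list was 0.0743 in the nucleus and 0.423 in the cytosol. Snhg5 reached 0.0219, 0.0113 and 0.0129 in the nucleus and 0.363, 0.267 and 0.275 in the cytosol, and Zfas1 0.0225, 0.0322 and 0.0288 against 0.203, 0.241 and 0.228. Both genes are known chiefly as snoRNA hosts, and in both the cytosol too had lost most of its RNA. Eif4a2, a translation initiation helicase whose introns hold snoRNAs, gave 0.0416, 0.0408 and 0.0436 against 0.334, 0.247 and 0.409. The member that was higher, Snhg14, spans 668 kb and gave 0.799, 0.934 and 1.16 against 0.634, 0.545 and 0.670 (difference 0.63 ± 0.17, adjusted p = 0.0327). Its adjusted p was up to 0.171 without 1 replicate number and 0.173 with libraries scaled to mitochondrially encoded messages.

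Long noncoding RNAs as a list lay a little under all genes, with 20 of 43 lower, 2 higher (31.9% and 5.42% of all genes) and a median of -0.55. Mir17hg, the host of the miR-17 to miR-92 cluster, fell to 0.0298, 0.0355 and 0.0382 in the nucleus and 0.427, 0.326 and 0.288 in the cytosol. Platr3, a transcript of pluripotent cells, gave 0.144, 0.162 and 0.162 against 0.696, 0.930 and 0.958. Malat1, a long RNA of nuclear speckles that was picked after its values had been seen, had nuclear ratios of 0.344, 0.140 and 0.168 and cytosolic ratios of 1.38, 1.50 and 2.58 (difference -3.12 ± 0.41, adjusted p = 0.0037). Neat1, the scaffold of paraspeckles and chosen in the same way, gave 0.757, 0.870 and 0.799 against 1.02, 1.38 and 1.20 (difference -0.55 ± 0.15, adjusted p = 0.0282). Both are known as nuclear RNAs, and both had a cytosolic ratio above 1 in each library. Antisense genes (877 tested, median -0.63), lincRNAs (502, -0.58) and transcripts from bidirectional promoters (57, -0.96) also lay under the median of all genes, and processed pseudogenes (894, 0.06) above it.

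Among genes of splicing and RNA binding, beside 31.9% lower and 5.42% higher of all genes, 6 of the 11 SR splicing factors were lower and 0 higher (median -0.53), and 8 of the 16 Hnrnp genes were lower and 0 higher (median -0.50). With centred libraries 4 SR factors were lower and 0 higher, and 5 Hnrnp genes lower and 2 higher. Srsf4 gave 0.327, 0.338 and 0.398 in the nucleus and 0.983, 0.868 and 0.959 in the cytosol, a difference of -1.40 ± 0.15 (adjusted p = 0.00264). Hnrnpa2b1 gave 0.126, 0.133 and 0.115 against 0.752, 0.668 and 0.767, a difference of -2.55 ± 0.20 (adjusted p = 0.00248). In both, the cytosol had kept most of its RNA while the nucleus had lost most. The CLK kinases and other genes with regulated, retained introns lay higher than the rest, with a median of 0.01 over 25 genes, 4 higher and 6 lower (14 and 3 when centred). Son, a speckle protein, was among the higher ones (0.778, 0.782 and 0.935 against 0.543, 0.597 and 0.577, adjusted p = 0.024), and Clk3 among the lower ones (0.342, 0.335 and 0.355 against 1.03, 0.882 and 0.992, adjusted p = 0.00248). The call for Son rests on all 6 libraries and on the authors' scaling, with adjusted p up to 0.146 without 1 replicate number and 0.312 after scaling to mitochondrially encoded messages.

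**Figure D4:**
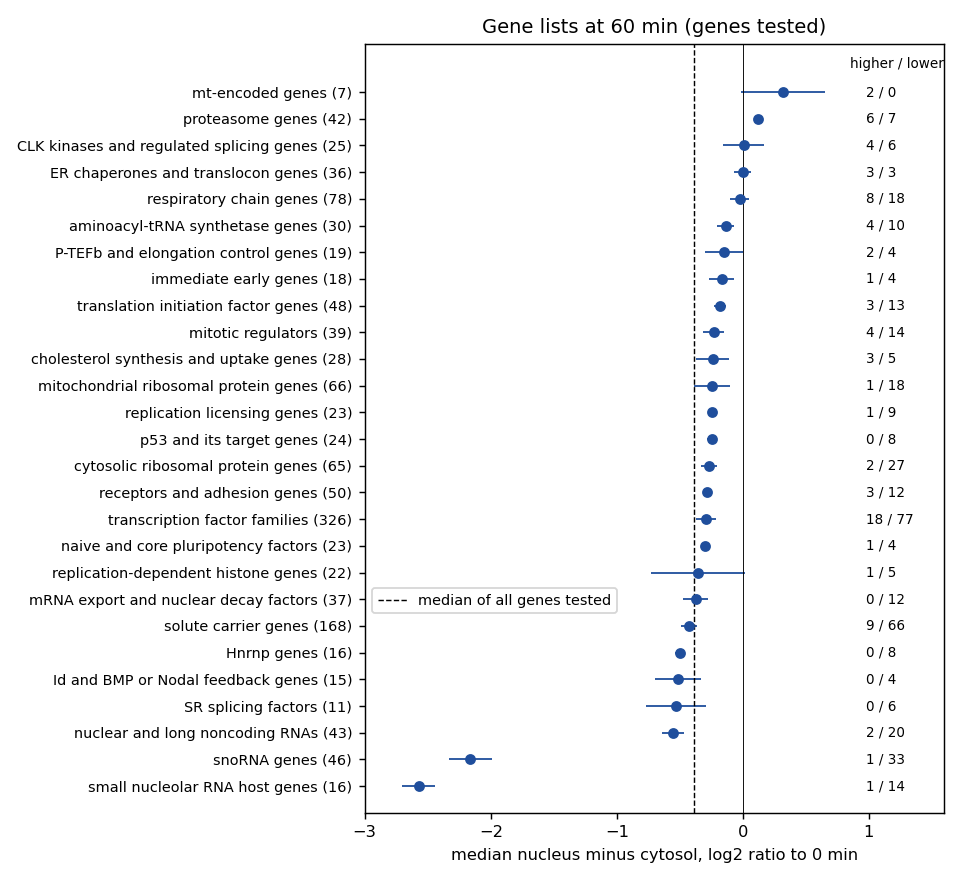
Median difference nucleus minus cytosol (log2 ratio to 0 min) of each gene list and of the snoRNA genes, with the SD over 3 pairs of libraries as bars and the number of genes tested in brackets. The dashed line is the median of all genes, -0.39, and the columns at the right give the genes called higher and lower, with snoRNA host genes at -2.57 lowest and mitochondrially encoded genes at 0.32 highest.

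Messages of the proteasome and of the respiratory chain lay above the median of all genes. Proteasome genes had a median difference of 0.12 ± 0.02 (SD over 3 pairs of libraries), 0.51 above that of all genes, with 6 of 42 higher and 7 lower where 5.42% and 31.9% of all genes were, and with median ratios of 0.981 in the nucleus and 0.952 in the cytosol. With centred libraries 28 were higher and 3 lower, where 23.4% and 15.7% of all genes were. Their median turns to -0.17 when libraries are scaled to mitochondrially encoded messages. Psma6, a subunit of the core ring, gave 1.68, 1.38 and 1.65 against 0.761, 0.845 and 0.947 (limma adjusted p = 0.00615), and Psmd13, of the regulatory lid, gave 0.426, 0.244 and 0.431 against 0.818, 0.873 and 1.15 (adjusted p = 0.0119). Members of a single complex thus differed in direction. Without 1 replicate number, the adjusted p rose up to 0.0708 for Psma6 and 0.0651 for Psmd13. Their differences in those fits lay between 0.75 and 0.97 and between -1.62 and -1.18. With libraries scaled to mitochondrially encoded messages 31 of the 103 named calls missed the threshold, all of them differences upward. Among them were Psma6, Uqcrc2, Cdk13, Fars2, Pdia3 and Dppa5a. The call for mt-Nd4 was lost too, but mt-Nd4 is itself among the messages scaled to, so that loss says nothing.

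Respiratory chain genes encoded in the nucleus had a median of -0.03, with 8 of 78 higher and 18 lower, and with centred libraries 41 were higher and 9 lower. These and the following counts stand beside 5.42% higher and 31.9% lower of all genes, or 23.4% and 15.7% with centred libraries. Uqcrc2, of complex III, gave 1.46, 1.38 and 1.57 against 0.935, 0.866 and 0.965 (adjusted p = 0.00716, up to 0.0767 without 1 replicate number), and Cox20, an assembly factor of complex IV, 0.0594, 0.0865 and 0.111 against 0.576, 0.591 and 0.639 (adjusted p = 0.0026). Of 7 mitochondrially encoded messages, which a separate polymerase makes and which are not exported from the nucleus, 2 were higher in the nuclear libraries and 0 lower (median 0.32 ± 0.33). mt-Nd4, one of these 2, had an adjusted p of 0.024 and up to 0.127 without 1 replicate number. Their median ratio in the cytosol was 1.08 at 60 min and 0.611 and 0.563 at 30 and 120 min, so the cytosolic libraries at 60 min stand apart in these genes. How far mitochondria carried over into the nuclear fraction bear on their nuclear ratios was not tested. Cytosolic ribosomal protein genes had a median of -0.27 with 27 of 65 lower and 2 higher (13 and 21 when centred), which ranged from Rps12 at -3.95 to Rpl24 at 0.55.

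Transcription factor families and immediate early genes, both known for fast turnover, had as lists fallen far in both compartments. Transcription factor families had median ratios of 0.410 in the nucleus and 0.514 in the cytosol, with 77 of 326 lower (23.6%), 18 higher (5.52%) and a median difference of -0.30, where 31.9% of all genes were lower and 5.42% higher. With centred libraries 37 were lower and 74 higher. Immediate early genes, which cells switch on within minutes of a stimulus, were at 0.224 and 0.343, with 4 of 18 lower and 1 higher (2 and 3 when centred). Nr4a1, an orphan nuclear receptor, gave 0.216, 0.173 and 0.246 against 0.432, 0.389 and 0.485 (difference -1.05 ± 0.24, adjusted p = 0.0177, up to 0.128 without 1 replicate number). Dusp4, a phosphatase of MAP kinases, went the other way, with 1.23, 1.44 and 1.85 against 0.475, 0.615 and 0.499 (difference 1.50 ± 0.19, adjusted p = 0.00346). Among zinc finger factors Zfp148 was higher (1.51, 1.76 and 1.89 against 0.587, 0.583 and 0.673) and Zfp473 lower (0.110, 0.125 and 0.111 against 0.752, 0.765 and 0.664). Of 23 pluripotency factors 1 was higher and 4 were lower (9 and 2 when centred), with a median of -0.30. This list had not fallen as far, with median ratios of 0.609 in the nucleus and 0.721 in the cytosol against 0.615 and 0.848 for all genes. Dppa5a, an RNA-binding protein of naive stem cells, gave 1.29, 1.45 and 1.61 against 0.864, 0.942 and 0.952 (difference 0.65 ± 0.13, adjusted p = 0.011), and Dppa4, a chromatin factor of early embryos, 0.572, 0.568 and 0.859 against 1.43, 1.28 and 1.33 (difference -1.04 ± 0.19, adjusted p = 0.00875). Neither was called in every fit without 1 replicate number, with adjusted p up to 0.0834 and 0.0829.

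The remaining lists lay on either side of the median of all genes, and their counts stand beside 31.9% lower and 5.42% higher of all genes, or 15.7% and 23.4% with centred libraries. Solute carriers were close to it, with 66 of 168 lower, 9 higher (32 and 32 when centred) and a median of -0.43, and the 15 genes of Id and BMP or Nodal feedback lay at -0.51 with 4 lower and 0 higher (1 and 1 when centred). ER chaperones and translocon genes lay at 0.00 over 36 genes, 3 higher and 3 lower (17 and 0 when centred), and aminoacyl-tRNA synthetases at -0.14 over 30 genes, 4 higher and 10 lower (16 and 9 when centred). Sars2, the mitochondrial seryl-tRNA synthetase, was lower (difference -1.41 ± 0.13, limma adjusted p = 0.00248), and Fars2, the mitochondrial phenylalanyl-tRNA synthetase, higher (1.84, 1.26 and 1.55 against 0.850, 0.866 and 0.946, adjusted p = 0.0137, up to 0.101 without 1 replicate number). Mitochondrial ribosomal proteins (18 of 66 lower, 1 higher), mitotic regulators (14 of 39 lower, 4 higher), replication licensing genes (9 of 23 lower, 1 higher), cholesterol genes (5 of 28 lower, 3 higher) and p53 targets (8 of 24 lower, 0 higher) had medians between -0.25 and -0.23. When centred, the lower and higher members of these lists numbered 6 and 23, 8 and 19, 5 and 9, 2 and 9, and 2 and 7 in the same order, so that the balance turned round in each. Mcm6, a subunit of the replicative helicase, fell to 0.113, 0.0667 and 0.0907 in the nucleus and kept 0.650, 0.636 and 0.498 in the cytosol (adjusted p = 0.00264). Translation initiation factors (13 of 48 lower, 3 higher, and 4 and 22 when centred) lay at -0.18, receptors and adhesion genes (12 of 50 lower, 3 higher, and 4 and 16 when centred) at -0.28, and replication-dependent histones (5 of 22 lower, 1 higher, and 1 and 2 when centred) at -0.35 ± 0.37. Histone messages end in a stem loop in place of a poly(A) tail, and their spread between pairs of libraries was the largest of all lists.

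The drug's own target pathway and the export machinery were measured too. Of 19 genes of P-TEFb and elongation control 4 were lower and 2 higher (3 and 8 when centred), with a median of -0.15, beside 31.9% and 5.42% of all genes. Ccnt2, a T-type cyclin of P-TEFb, gave 0.265, 0.308 and 0.271 against 0.747, 0.830 and 0.830 (difference -1.51 ± 0.16, adjusted p = 0.00261), and Nelfb, a subunit of the factor that holds paused polymerase, 0.393, 0.355 and 0.444 against 1.01, 0.909 and 1.03. Cdk13, a later elongation kinase, gave 1.11, 1.38 and 1.59 against 0.854, 0.702 and 0.899 (adjusted p = 0.0227, up to 0.147 without 1 replicate number). Of 37 export and nuclear decay factors 12 were lower and 0 higher (7 and 9 when centred), with a median of -0.38, close to that of all genes. Nxf1, the main export receptor of messages, whose own pre-mRNA is known to keep an intron, gave 0.440, 0.458 and 0.509 against 1.25, 1.19 and 1.34 (difference -1.43 ± 0.12, adjusted p = 0.00248). Exosc1, of the RNA exosome, gave 0.0985, 0.0623 and 0.0996 against 0.750, 0.764 and 0.997 (difference -3.29 ± 0.29, adjusted p = 0.00248).

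Of the study's example genes, Nf1, a large gene for a Ras-GTPase activating protein, had nuclear ratios of 0.768, 0.807 and 1.06 and cytosolic ratios of 0.672, 0.645 and 0.759, a difference of 0.33 ± 0.16 (limma adjusted p = 0.153). Tfrc, the transferrin receptor, had 0.388, 0.441 and 0.505 against 0.506, 0.505 and 0.605, a difference of -0.28 ± 0.18 (adjusted p = 0.264). The values of the 2 compartments came close without overlap in both genes, and neither passed the test. With centred libraries the difference of Tfrc was 0.18.

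The difference followed the length of the gene on the chromosome. Its median was -0.49 in genes that span under 10 kb, -0.52 at 10 to 30 kb, -0.24 at 30 to 100 kb, -0.04 at 100 to 200 kb and 0.08 ± 0.03 over 200 kb (412 genes, SD over 3 pairs of libraries). The cytosolic ratio was alike in all bins, at 0.830 to 0.875, while the nuclear ratio went from 0.549 in the shortest to 0.937 in the longest genes. Over 200 kb, 15.5% of genes were higher and 8.98% lower in the nucleus, against 5.42% and 31.9% of all. With libraries scaled to mitochondrially encoded messages the median of the longest genes was -0.20. The difference showed no such order by number of exons, with medians of -0.30, -0.34, -0.43 and -0.35 in protein-coding genes of 1, 2 to 5, 6 to 10 and over 10 exons. Both ratios rose over these bins, from 0.511 to 0.677 in the nucleus and from 0.667 to 0.893 in the cytosol. Of the 10 genes with the largest differences upward, Tcf12 spans 269 kb and Rfx3 249 kb, and of those downward Rps12 spans 2.09 kb and Rps9 2.90 kb.

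It also followed base composition, which was looked at after the data had been seen. In 5 equal bins of the protein-coding genes by the GC content of the longest transcript, bounded at 44.3, 48.3, 52.1 and 55.8%, the median difference was -0.02, -0.18, -0.35, -0.55 and -0.79. From the lowest to the highest bin the nuclear ratio fell from 0.776 to 0.451, and the cytosolic ratio stayed between 0.814 and 0.860. In the lowest bin 13.3% of genes were higher and 14.9% lower in the nucleus, and in the highest bin 1.04% and 53.3%. Across the 10092 protein-coding genes Spearman's rho with the difference was 0.27 for span and -0.40 for GC content, and -0.32 between span and GC content. Genes are not independent replicates and share the 6 libraries, so no p is given. Within each GC bin the median was higher over 200 kb than under 10 kb, from -0.10 to 0.47 in the lowest (69 genes over 200 kb) and from -0.82 to -0.28 in the highest (22 genes), and within each span bin it fell from the lowest to the highest GC bin. GC content also affects how well a fragment is copied and sequenced, and its part in the result was not tested.

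**Figure D5:**
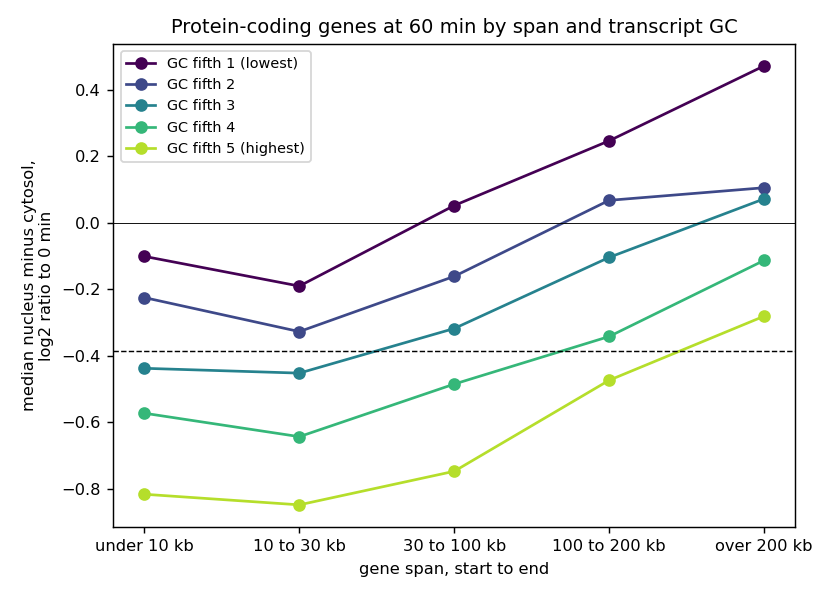
Median difference nucleus minus cytosol (log2 ratio to 0 min) of protein-coding genes at 60 min by gene span, 1 line for each of 5 equal bins of transcript GC content, the dashed line marking the median of all genes (-0.39). Each line ends higher over 200 kb than it starts under 10 kb, and at each span the lowest GC bin is highest, up to 0.47.

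The other times place 60 min in the course of the block. The median gene's difference was -0.28 at 30 min, -0.39 at 60 min, -0.26 at 120 min and -0.22 at 240 min, each over the genes that all 6 libraries of its time list. At 30 min the nuclear libraries ranged in their median ratio from 0.582 (replicate 1) to 0.933, and the exact permutation test gave p = 0.3. The interaction of fraction with time, in which the level at 0 min cancels, was then fitted. From 30 to 60 min limma called 0 of 12705 genes in either direction, with 1048 at an unadjusted p under 0.05. With replicate 1 of the nucleus at 30 min left out, it called 7 genes that moved toward the nucleus and 195 toward the cytosol.

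From 60 to 240 min 1243 of 11819 genes (10.5%) moved toward the nucleus and 621 (5.25%) toward the cytosol. These counts fell to between 0 and 266 and between 0 and 149 without 1 replicate number, and to 18 and 71 with libraries scaled to mitochondrially encoded messages, which turns the balance round. The change uses the 60 min libraries as well, so it is not independent of the difference at 60 min. Map4 turned around, from a nuclear mean of 4.68 and a cytosolic mean of 1.27 at 60 min to 0.355 and 0.543 at 240 min, a change of -2.48 ± 0.26 (limma adjusted p = 0.000972, up to 0.0595 without 1 replicate number). In Nf1 the nuclear mean went from 0.879 to 1.20 and the cytosolic mean from 0.692 to 0.366, a change of 1.39 ± 0.21 (adjusted p = 0.00383, up to 0.0999 without 1 replicate number). In Slc3a2 the cytosolic mean went on from 5.08 to 12.3 with the nucleus at 0.391 (change -1.04 ± 0.25, adjusted p = 0.0194, up to 0.160 without 1 replicate number).

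Gene groups also parted with time. Over genes listed in all 24 nuclear and cytosolic libraries, the median difference of genes over 200 kb was 0.02, 0.09, 0.42 and 0.50 at 30, 60, 120 and 240 min, and that of genes under 10 kb -0.35, -0.44, -0.30 and -0.32. Transcription factor families crossed from -0.30 at 60 min to 0.18 at 120 min and 0.48 at 240 min, by which time their median ratio was 0.120 in the nucleus and 0.101 in the cytosol. The long noncoding list moved the other way, from -0.33 at 30 min and -0.55 at 60 min to -0.99 at 240 min. snoRNA genes (22 of them) were already at -1.89 by 30 min. A gene at 0 is not listed, so genes that vanished from a library are missing from these medians.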

How the data were processed

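Libraries were made from poly(A)-selected RNA. According to the labels, the authors aligned reads with STAR 2.7.6 to mm10, counted them with RSEM 1.3.3, scaled libraries on genes with half-lives above 14 hours and divided by the value at 0 min. What is deposited is thus a ratio, although the column heading names normalized read counts. Depth is unknown, and libraries of 0 min were not analysed here. Groups and replicate numbers come from the titles, which give 240 min as last time where the protocol gives 180 min.

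Log2 ratios without pseudocount were fitted with limma 3.58.1 (two-sided, lmFit and eBayes with trend, in R 4.3.3) over the 13409 genes listed in all 6 libraries. The trend is over a gene's mean log2 ratio, not over its level. Benjamini-Hochberg adjustment covered all of these genes, with a threshold of 0.05. Library medians were compared by an exact permutation test. The fit was tested on simulated data. Of the gene identifiers, 23786 matched GENCODE M21 (GRCm38), a later release than the study's. GC content, 3′ UTR and exon number refer to the longest transcript. Named genes are Nf1 and Tfrc, the 10 largest differences in each direction at an adjusted p under 0.01 without overlap, listed in all 48 libraries and with a proper symbol, and up to 2 called genes per direction of each of 26 lists, of which a part is shown. Members and lists were chosen with earlier results of these data known. Alternatives covered a pseudocount of 0.1, gene filters, library scaling, the libraries in the fit, limma without trend, a replicate block and each replicate number left out. Across genes, pairs with equal replicate numbers did not deviate together (r of -0.0017, 0.0445 and 0.0089). That r cannot see a shift common to all genes of a library. The log2 library medians of replicates 1, 2 and 3 did share their order, at -0.743, -0.787 and -0.573 in the nucleus and -0.234, -0.322 and -0.159 in the cytosol. The main fit compares the groups without a block, and the replicate block is an alternative.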

Additional observations from a re-analysis of the deposited data

Results flagged for a closer look

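These results were marked because the difference between nucleus and cytosol changed from 60 to 240 min in the limma interaction fit, adjusted over all 11819 genes tested. They number 1243 genes toward the nucleus and 621 toward the cytosol. Of the 103 named genes that could be tested, 22 were among them, 9 toward the nucleus and 13 toward the cytosol. Toward the nucleus, the log2 changes were 1.515 for Lefty2, 1.392 for Nf1, 1.147 for Son, 0.8535 for Luc7l2, 0.7387 for Snhg14, 0.7314 for Eif3e, 0.721 for Fam126b, 0.7141 for Knl1 and 0.561 for Uqcrc2. Toward the cytosol, they were -2.484 for Map4, -1.573 for Hnrnpa2b1, -1.421 for Spi1, -1.346 for Nxf1, -1.34 for Snora65, -1.31 for Eif4a2, -1.281 for Usp15, -1.123 for Cox7c, -1.042 for Slc3a2, -0.9727 for Ddb2, -0.8587 for Fnbp4, -0.8041 for Atf6 and -0.7711 for Orc5. Of the 22 named changes, 22 were no longer called in the fit without replicate 1, 22 in that without replicate 2, 17 in that without replicate 3 and 21 with libraries scaled to mitochondrially encoded messages, and those of Eif4a2 and Nxf1 turned their sign with a pseudocount of 0.1. The changes share the 60 min libraries with the differences at 60 min.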

How the results depend on the processing

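Scaling and the number of libraries decided the counts. At 60 min, genes higher and lower in the nucleus numbered 3135 and 2101 with centred libraries (727 and 2101 of the original calls kept), and 222 genes were higher with libraries scaled to mitochondrially encoded messages. Without 1 replicate number there were 144 to 237 higher and 1158 to 2059 lower, against 727 and 4283. The median difference was -0.33 with a pseudocount of 0.1, 0.077 centred and -0.67 after mitochondrial scaling. The change from 30 to 60 min gave 15 and 11 genes toward nucleus and cytosol when centred, 3 toward the nucleus after mitochondrial scaling, and 7 and 195 without the nuclear 30 min library of replicate 1, an alternative chosen after the data were seen. The change from 60 to 240 min gave 975 genes toward the cytosol when centred, 18 and 71 after mitochondrial scaling, and 0 to 266 and 0 to 149 without 1 replicate number. With the replicate block 803 genes were higher and 4165 lower at 60 min. Named differences at 60 min kept direction in all alternatives but for Tfrc (0.18 centred), and 42 of 103 named calls held in every fit without 1 replicate number. Those fits have fewer libraries, and no named gene reached a limma adjusted p under 0.0387 in them. With the pseudocount, the 60 to 240 min changes of Eif4a2 (0.0041) and Nxf1 (0.14) reversed. The causes were not tested. Depth is unknown, so counting error is not given.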
